A study of Mus musculus with 15 samples.

Results

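Sympathetic neurons and the Schwann cells that wrap their axons were followed through 27 genes in RNA of the fat around the mouse aorta (perivascular adipose tissue, PVAT). The genes were chosen by symbol as 20 genes of sympathetic neurons and 7 genes of glia, and their Ensembl identifiers were looked up among the 43352 genes of the count table. All 27 were found, and all 27 passed the filter on low counts. The study compared fat of the abdominal aorta (aPVAT) with fat of the thoracic aorta (tPVAT) in mice aged 11 weeks. There were 3 aPVAT cKO libraries (numbers 1, 3 and 4), 4 aPVAT control libraries, 4 tPVAT cKO libraries and 4 tPVAT control libraries. Mice of all 4 groups carried Prdm16flox, alleles of the transcriptional coregulator gene Prdm16 flanked by loxP sites, and the cKO mice carried AdipoQCre+ in addition. That Cre recombinase is driven by the adipocyte gene Adipoq, so neurons and glia are not its target cells. Whether each library of a group is its own animal is not stated in the labels, so every p-value here rests on the spread among these libraries, which may be technical.

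Sympathetic axons reach fat from cell bodies in ganglia, release noradrenaline and neuropeptide Y, and drive lipolysis and heat production through adrenergic receptors on adipocytes. They make noradrenaline by the enzymes Th, Ddc and Dbh, load it into vesicles through Slc18a2 and take it back up through Slc6a2. Schwann cells ensheath these axons, either with myelin or as unmyelinated bundles, and keep the transcription factor Sox10 throughout life. Axons carry little messenger RNA compared with cell bodies, and a bulk sample holds whatever nerve and ganglion the dissection took. Fewer cells of a type and less RNA per cell cannot be told apart in such samples.

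Total counts were 37.8 M to 68.7 M per library. Levels are given in CPM, the counts over the scaled library size in units of 1e6 counts. Differences are log2 fold changes from edgeR's quasi-likelihood test over 19645 genes, with Benjamini-Hochberg adjustment and a threshold of 0.05. Each has an approximate standard error (SE). The test does not report it, so the absolute log2 fold change was divided by the square root of the test's F. Genes of the mitochondrial genome took 13% to 16% of the counts in aPVAT and 26.5% to 36.4% in tPVAT. The ribosomal RNA locus gene Gm42418 took 2.1% of the counts in aPVAT cKO 4, 0.898% in aPVAT control 2 and 0.0641% to 0.198% elsewhere, so results in aPVAT are also given without these libraries. Prdm16 checked the labels: its 22.4, 21.2, 22.2 and 23.8 CPM in tPVAT cKO lay below the 46.4, 41.1, 46.3 and 55.6 CPM in tPVAT controls. In aPVAT its 15.1, 14.7 and 18.3 CPM in cKO lay below the 26.8, 21.4, 23.3 and 23.4 CPM in controls, and both differences passed (adjusted p = 2.22e-06 in tPVAT and 0.00992 in aPVAT).

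Per kilobase of exon, Dbh led the neuronal genes in tPVAT, with 45.8 ± 12.8 CPM per kb in cKO and 37.3 ± 8.97 CPM per kb in controls (SD, n = 4 each). In aPVAT Npy led, with 164 ± 11.2 CPM per kb in cKO (n = 3) and 133 ± 14.2 CPM per kb in controls (n = 4). Dbh, Npy, Uchl1, Slc6a2, Th and Prph filled the first 6 places in every group. The large neurofilament subunit Nefh and the medium subunit Nefm filled the last 2 in every group, at 1.72 to 4.76 CPM per kb. Pmp22, a component of peripheral myelin that other cells also make, led the glial genes in all 4 groups, at 106 ± 11.5 and 81.5 ± 8.06 CPM per kb in aPVAT cKO and aPVAT controls, and at 59.7 ± 3.55 and 40.7 ± 0.582 CPM per kb in tPVAT cKO and tPVAT controls. Members of both cell types were detected in every library, and the lowest count of any member was 102. Markers of the adrenal gland, another source of Th and Dbh, were at low levels. Pnmt, the adrenaline enzyme of the adrenal medulla, did not exceed 0.0689 CPM, and the cortical enzymes Cyp21a1 and Hsd3b1 did not exceed 0.0856 CPM and 0.0369 CPM. Of the 11 adrenal markers listed 5 passed the filter on low counts, and their summed level of 130 to 150 CPM in aPVAT cKO, 97.1 to 115 CPM in aPVAT controls, 94.1 to 105 CPM in tPVAT cKO and 60.5 to 65.6 CPM in tPVAT controls was mostly the lipoprotein receptor gene Scarb1 (54.9 to 142 CPM). In both genotypes 3 of these 5 were higher and 0 lower in aPVAT, namely Scarb1, the corticotropin receptor gene Mc2r and Cyp11b1, an enzyme of the adrenal cortex. Over all genes 29.3% were higher in aPVAT in controls and 27.2% in cKO. Cyp11b1 stood at 0.125, 0.25 and 0.193 CPM in aPVAT cKO, at 0.147, 0.244, 0.058 and 0.0858 CPM in aPVAT controls, and at no more than 0.0198 CPM in tPVAT. The part of adrenal tissue in the members' levels was not tested.

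The DNA before the start of a gene is shown for Th as the rate-limiting enzyme of noradrenaline synthesis, for Npy as the neuronal gene that differed most between depots, and for S100b and Gldn as the glial genes whose level went opposite ways to the rest. The sequences are from RefSeq on GRCm38.p6, read 5′ to 3′ in the direction of the gene, and end at the base before the RefSeq start or before the first annotated exon. Those of Npy, S100b and Gldn hold 250 bases on the plus strand, at chr6:49822460-49822709, chr10:76253586-76253835 and chr9:54286236-54286485. That of Th holds 231 bases on the minus strand, at chr7:142900015-142900245. Capitals mark the cyclic AMP response element TGACGTCA in Th and the motif CCCNNGGG, bound by early B cell factors, in S100b.
Th: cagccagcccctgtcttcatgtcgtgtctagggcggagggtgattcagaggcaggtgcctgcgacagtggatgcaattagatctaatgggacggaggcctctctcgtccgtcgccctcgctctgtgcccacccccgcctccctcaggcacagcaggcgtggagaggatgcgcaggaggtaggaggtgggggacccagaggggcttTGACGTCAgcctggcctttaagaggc
Npy: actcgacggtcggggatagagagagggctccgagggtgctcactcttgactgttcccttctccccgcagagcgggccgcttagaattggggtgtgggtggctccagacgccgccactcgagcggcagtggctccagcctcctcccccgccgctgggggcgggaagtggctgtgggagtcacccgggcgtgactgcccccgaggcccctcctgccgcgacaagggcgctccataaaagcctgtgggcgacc
S100b: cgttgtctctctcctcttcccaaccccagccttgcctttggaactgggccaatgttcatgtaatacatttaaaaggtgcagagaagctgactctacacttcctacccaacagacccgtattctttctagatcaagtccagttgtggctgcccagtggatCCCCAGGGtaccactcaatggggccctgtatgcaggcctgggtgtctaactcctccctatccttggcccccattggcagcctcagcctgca
Gldn: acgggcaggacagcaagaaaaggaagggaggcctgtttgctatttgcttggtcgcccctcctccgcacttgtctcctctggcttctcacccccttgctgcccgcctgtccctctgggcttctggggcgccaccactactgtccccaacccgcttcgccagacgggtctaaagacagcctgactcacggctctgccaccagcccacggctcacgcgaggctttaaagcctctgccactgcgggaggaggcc
The 17 members in the RefSeq table were searched over the 250 bases before their RefSeq start, on both strands. For Chgb and Dbh all 250 of these bases lie in annotated exons, so their matches are not outside annotated transcripts. TGACGTCA was found in Th and Chgb, against 1.55% of all promoters in the table. Its shorter part TGACG, which overlaps it, was found in Th, Chgb, Dbh, Chga and Hand2, against 17.8% of all promoters. CCCNNGGG was found in Chgb, Dbh, Gal, Pmp22 and S100b, against 11.8% of all promoters. Other motifs were searched as well. CATCTG and TAATTA were each found in Hand2 alone, against 14.4% and 4.84% of all promoters. TTCAGCACC, the left part of the element RE1, was found in no member, against 0.301% of all promoters. None of these motifs was found in Npy or Gldn.

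In tPVAT, cKO differed from control in 3 glial genes, and no neuronal gene passed the test. Of the 7 glial members, Gldn and S100b fell and Pmp22 rose in cKO, and the other 4 did not pass. Of all genes tested 12% passed in this comparison, 5.44% upward and 6.61% downward. Gldn fell by 2.73 on the log2 scale, 0.150 of the control level. In 4 of 7 glial genes the cKO and control libraries did not overlap, against 23.2% of all genes, and in 0 of 20 neuronal genes.

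Gldn encodes gliomedin, a protein that myelinating Schwann cells secrete and that gathers sodium channels at nodes of Ranvier; the gene lies on the plus strand at chr9:54286486-54341786 (mm10). It stood at 2.04, 2.25, 2.03 and 2.4 CPM in tPVAT cKO and at 21.1, 10.1, 12.4 and 14.4 CPM in tPVAT controls. In aPVAT it stood at 2.31, 2.7 and 2.35 CPM in cKO and at 2.92, 2.48, 2.1 and 1.59 CPM in controls. The 4 tPVAT control libraries thus stood above the other 11, and the cKO libraries of tPVAT lay in the range of the aPVAT libraries. The tPVAT difference had an SE of 0.21 and an adjusted p of 4.6e-07 in edgeR, and the aPVAT difference was 0.12 (SE 0.22, adjusted p = 0.866). The test of the difference between depots gave 2.85 (SE 0.30, adjusted p = 0.000172), the only member that passed it, against 0.784% of all genes. An antisense gene, Gldnos, lies in the body of Gldn on the other strand without sharing exons, and it held 2 counts over all 15 libraries.

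S100b encodes a calcium-binding protein of Schwann cells that thermogenic adipocytes are also known to make, from a gene on the plus strand at chr10:76253853-76261159. It stood at 33.0, 21.4, 29.3 and 30.8 CPM in tPVAT cKO and at 59.8, 33.9, 43.8 and 46.3 CPM in tPVAT controls. The groups did not overlap, but the highest cKO library and the lowest control library were close. The log2 fold change was −0.68 (SE 0.17, adjusted p = 0.0168 in edgeR), and without tPVAT control 1, the highest library, the adjusted p was 0.0644. In aPVAT S100b stood at 8.64, 11.3 and 10.7 CPM in cKO and at 17.1, 12.0, 14.8 and 11.3 CPM in controls, and the difference of −0.44 (SE 0.19) did not pass (adjusted p = 0.361). Dip2a, at 23.4 to 60.5 CPM, overlaps the body of S100b on the other strand without sharing exons.

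Pmp22 lies on the plus strand at chr11:63128982-63159547. It stood at 144, 150, 135 and 132 CPM in tPVAT cKO and at 94.3, 97.5, 96.0 and 95.2 CPM in tPVAT controls. The groups lay far apart, and the 4 controls lay close together. The log2 fold change was 0.55 (SE 0.08, adjusted p = 0.000241 in edgeR). In aPVAT it stood at 218, 264 and 265 CPM in cKO and at 215, 177, 199 and 176 CPM in controls, where the difference was 0.38 (SE 0.08, adjusted p = 0.0352). Pmp22 was the only member that passed in aPVAT, where 1.53% of all genes did (0.743% upward and 0.789% downward). The aPVAT call depended on single libraries. Its adjusted p was 0.133 and 0.155 when aPVAT cKO 3 or 4 was left out, 0.0629, 0.0576 and 0.1 when aPVAT control 2, 3 or 4 was left out, and 0.126 without both aPVAT control 2 and aPVAT cKO 4.

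The other 4 glial genes did not pass for genotype in either depot. Sox10, the transcription factor that defines the lineage, stood at 6.74, 6.29, 3.56 and 5.54 CPM in tPVAT cKO and at 4.95, 5.08, 4.50 and 8.25 CPM in tPVAT controls. Its log2 fold changes of −0.04 (SE 0.22) in tPVAT and −0.02 (SE 0.22) in aPVAT did not pass, and their sign turned under other scalings. Mbp, a structural protein of myelin, stood at 63.3, 65.7, 57.6 and 59.4 CPM in tPVAT cKO and at 57.7, 57.6, 53.4 and 60.5 CPM in tPVAT controls, and these ranges overlapped. Cdh19, a cadherin of Schwann cell precursors and non-myelinating Schwann cells, stood at 11.8, 9.39, 8.71 and 10.4 CPM in tPVAT cKO and at 7.99, 4.55, 7.53 and 7.68 CPM in tPVAT controls. Its groups did not overlap, yet its log2 fold change of 0.54 (SE 0.21) did not pass (adjusted p = 0.115 in edgeR, 0.0320 in a fit of the tPVAT libraries alone). The receptor Ngfr, carried by sympathetic neurons and by Schwann cells, differed by 0.12 (SE 0.21) in tPVAT and by 0.01 (SE 0.22) in aPVAT, and neither passed.

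**Figure D1:**
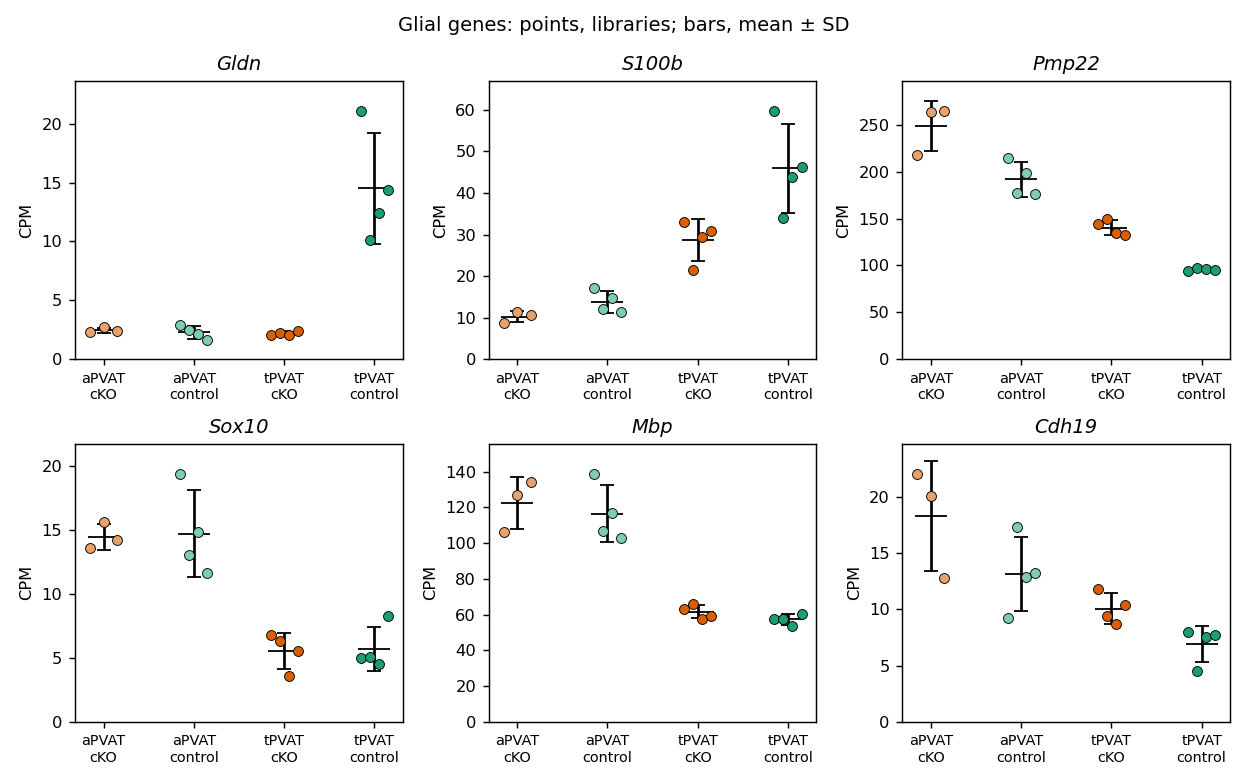
Level of 6 glial genes in CPM (vertical axes start at 0) in aPVAT cKO, aPVAT control, tPVAT cKO and tPVAT control libraries; points are libraries and bars are mean ± SD. Gldn is high only in the 4 tPVAT control libraries (10.1 to 21.1 CPM), Sox10 and Mbp part by depot, and Cdh19 parts by depot only within each genotype.

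Markers of adipocytes, the target of the deletion, moved beside these genes. In tPVAT 6 of 14 adipocyte markers were higher in cKO and 0 lower, among them Retn (log2 fold change 2.0) and Cfd (1.25), and their summed level was 30200 to 32100 CPM in cKO and 26000 to 27500 CPM in controls. In aPVAT 1 was higher and 2 were lower, Cidea (−1.74) and Ucp1 (−4.84). Over all genes 5.44% were higher and 6.61% lower in tPVAT cKO, and 0.743% and 0.789% in aPVAT cKO. None of the 14 markers was at 0 in any library. Endothelial and smooth muscle markers were counted in tPVAT as well. Of 10 endothelial markers 3 were lower in cKO and 0 higher (summed 963 to 1030 CPM in cKO and 1080 to 1240 CPM in controls), and of 10 smooth muscle markers 1 was lower and 0 higher (2060 to 2250 CPM in cKO and 2410 to 3110 CPM in controls). The part of these cells in the levels of Gldn, S100b and Pmp22 was not tested.

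No neuronal gene passed the test for genotype in either depot (0 of 20 each). All 20 log2 fold changes were positive in both, with a median of 0.26 and a range of 0.11 to 0.53 in tPVAT, and a median of 0.20 and a range of 0.08 to 0.42 in aPVAT. The median over all genes was −0.01 in both. At an unadjusted p under 0.05 there were 3 of 20 neuronal genes in tPVAT (Npy, Chgb and Snap25) and 0 of 20 in aPVAT. Of the 19645 genes tested there were 5099 in tPVAT and 2438 in aPVAT, a larger share in both depots. DESeq2 passed 1 neuronal gene in tPVAT, Npy (adjusted p = 0.0395), and 0 in aPVAT. The 20 genes share libraries and vary together across them, so their common sign is not 20 separate observations. Without tPVAT cKO 2 the tPVAT median was 0.14, and 18 of 20 were positive. Without tPVAT cKO 3 or tPVAT control 4 it was 0.40, and Npy and Chgb passed. Without aPVAT cKO 3 the aPVAT median was 0.01, and 12 of 20 were positive. Without aPVAT control 1 it was 0.10.

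**Figure D2:**
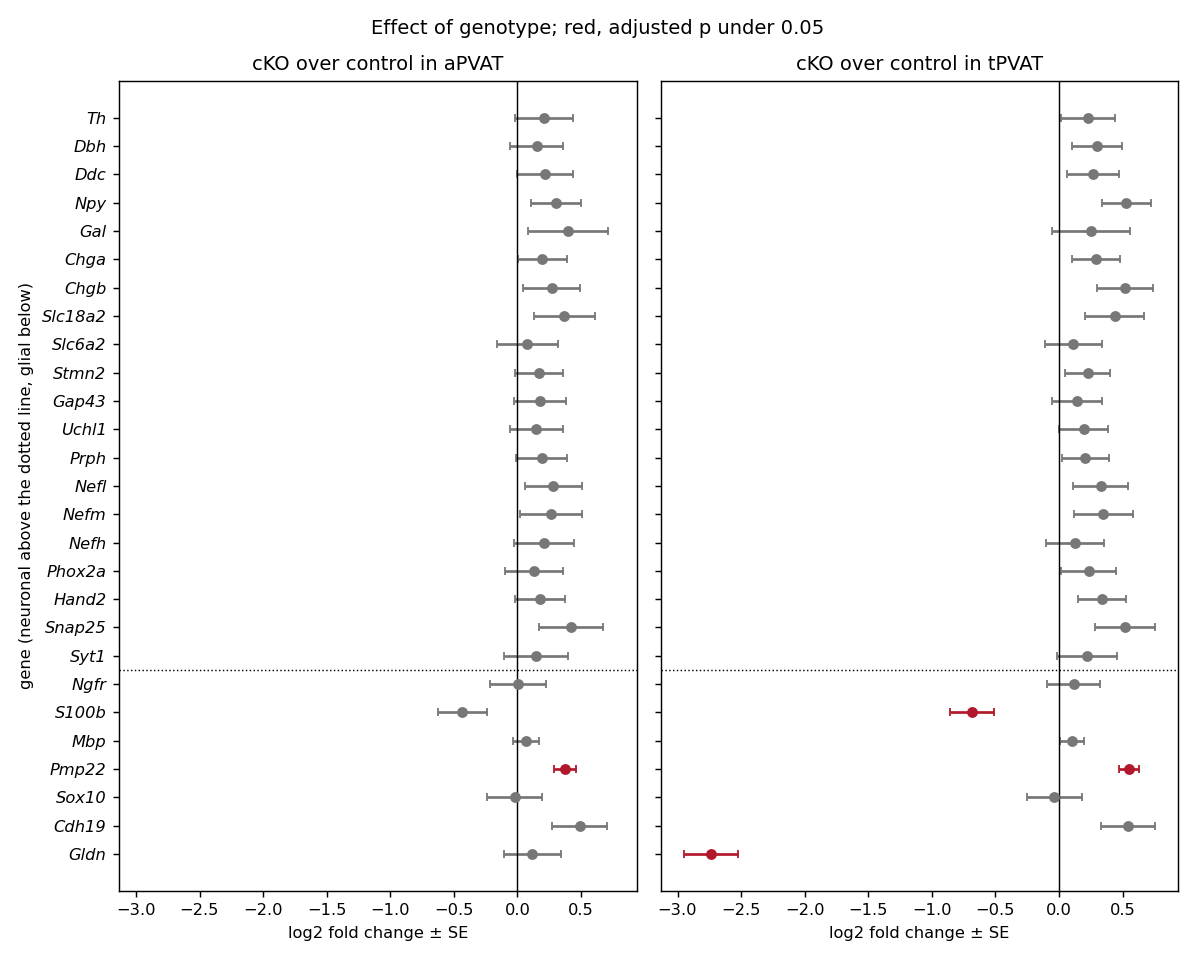
Log2 fold change of cKO over control (horizontal axis, ± SE) for the 27 genes in aPVAT (left) and tPVAT (right); red marks an adjusted p under 0.05. The 20 neuronal genes lie between 0.08 and 0.53 with none in red, and the red points are Pmp22 in aPVAT, and S100b, Pmp22 and Gldn in tPVAT.

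The enzymes of noradrenaline synthesis show this spread. Th stood at 99.4, 124 and 82.9 CPM in aPVAT cKO and at 72.1, 76.8, 110 and 94.6 CPM in aPVAT controls. In tPVAT it stood at 62.0, 74.8, 34.1 and 54.4 CPM in cKO and at 49.1, 38.5, 41.0 and 63.9 CPM in controls. The tPVAT cKO libraries held both the highest and the lowest value of that depot. The log2 fold changes of Th were 0.21 (SE 0.23) in aPVAT and 0.23 (SE 0.22) in tPVAT. Dbh, which turns dopamine into noradrenaline, stood at 212, 272 and 199 CPM in aPVAT cKO and at 176, 195, 245 and 204 CPM in aPVAT controls. In tPVAT it stood at 138, 157, 76.6 and 121 CPM in cKO and at 97.2, 83.4, 85.8 and 136 CPM in controls, and the genotypes overlapped in both depots.

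Npy, the cotransmitter of noradrenaline, stood at 92.1, 99.6 and 87.0 CPM in aPVAT cKO and at 69.4, 70.5, 86.9 and 74.0 CPM in aPVAT controls. The lowest cKO and the highest control library nearly touched. Npy was the only neuronal gene whose groups did not overlap in aPVAT, against 9.56% of all genes, and the difference did not pass (0.31, SE 0.20, adjusted p = 0.560). In tPVAT Npy stood at 24.9, 30.9, 16.5 and 22.8 CPM in cKO and at 17.7, 12.4, 12.8 and 23.1 CPM in controls, and the difference of 0.53 (SE 0.19) did not pass (adjusted p = 0.0846). Slc6a2, the noradrenaline transporter and the neuronal gene with the smallest genotype difference, stood at 230, 358 and 217 CPM in aPVAT cKO and at 204, 224, 318 and 272 CPM in aPVAT controls. In tPVAT it stood at 200, 235, 109 and 169 CPM in cKO and at 166, 138, 140 and 217 CPM in controls.

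Between the depots, nerve genes of both kinds were mostly higher in aPVAT. In controls 18 of 20 neuronal genes and 5 of 7 glial genes were higher in aPVAT than in tPVAT, and S100b and Gldn were lower; of all genes tested 56.6% passed, 29.3% upward and 27.3% downward. In cKO 18 of 20 neuronal and 5 of 7 glial genes were higher and S100b was lower, where 52.6% of all genes passed, 27.2% upward and 25.4% downward. The median log2 fold change of the neuronal genes was 0.91 in controls and 0.87 in cKO, against 0.04 over all genes in both. The libraries of the depots did not overlap for 13 of 20 neuronal genes in controls (all genes, 49.5%) and for 16 of 20 in cKO (all genes, 55%). The tPVAT controls enter both the depot comparison in controls and the genotype comparison in tPVAT. With library totals in place of scaled sizes, the median of all genes was 0.78 in controls and 0.69 in cKO, and the neuronal medians were 1.65 and 1.52. Other cell types differed between the depots as well. In controls 11 of 12 macrophage markers were higher in aPVAT and 0 lower (summed 815 to 1130 CPM in aPVAT and 472 to 531 CPM in tPVAT), 8 of 10 endothelial markers were higher and 1 lower (1590 to 2050 CPM in aPVAT and 1080 to 1240 CPM in tPVAT), and 9 of 12 markers of fibroblasts and perineurium were higher and 0 lower (2290 to 2850 CPM in aPVAT and 1250 to 1540 CPM in tPVAT). None of these markers was at 0 in any library. Of 11 lymphocyte markers measured 7 were higher and 1 lower (summed 20.7 to 74 CPM in aPVAT and 12 to 17.5 CPM in tPVAT), and of 11 skeletal muscle markers 1 was higher and 9 lower (5.71 to 9.89 CPM in aPVAT and 14 to 90 CPM in tPVAT). The part of these cell types in the members' levels was not tested. Without aPVAT control 2 and aPVAT cKO 4, 18 of 20 neuronal genes passed in controls and 19 of 20 in cKO.

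Npy and Chgb, both of secretory vesicles, led the depot difference. Npy was higher by 2.19 in controls (SE 0.19, adjusted p = 1.22e-07 in edgeR) and 1.96 in cKO (SE 0.20, adjusted p = 8.45e-07), 4.56-fold and 3.90-fold. Chgb encodes chromogranin B, a core protein of the dense vesicles that store transmitter. It stood at 38.3, 41.6 and 52.0 CPM in aPVAT cKO and at 27.6, 45.4, 37.3 and 35.6 CPM in aPVAT controls. In tPVAT it stood at 12.1, 14.3, 7.28 and 12.3 CPM in cKO and at 7.54, 6.26, 6.78 and 11.6 CPM in controls. Every aPVAT library stood above every tPVAT library, and the log2 fold change was 2.18 in controls (SE 0.22, adjusted p = 5.21e-07) and 1.93 in cKO (SE 0.23, adjusted p = 3.68e-06). The related granin Chga rose less, by 0.85 (SE 0.19) in controls and 0.75 (SE 0.20) in cKO. Gal, the peptide galanin, did not pass in controls (0.53, SE 0.30) or cKO (0.68, SE 0.32).

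Genes of noradrenaline handling rose together by about 1 log2 unit, with Slc6a2 below the others. Dbh was higher in aPVAT by 1.03 in controls (SE 0.20) and 0.88 in cKO (SE 0.21), Th by 0.88 (SE 0.22) in controls and 0.86 (SE 0.23) in cKO, and Ddc by 0.98 (SE 0.21) in controls and 0.93 (SE 0.22) in cKO. The vesicular transporter Slc18a2 was higher by 0.99 (SE 0.23) in controls and 0.92 (SE 0.24) in cKO. Mast cells also use Slc18a2, and their 12 listed markers, Slc18a2 among them, summed to 175 to 189 CPM in aPVAT controls and 106 to 132 CPM in tPVAT controls, with 7 of 12 higher and 2 lower. Over all genes 29.3% were higher and 27.3% lower in aPVAT in controls. The protease Cpa3 averaged 18.1 ± 2.15 CPM in aPVAT controls and 11.7 ± 1.02 CPM in tPVAT controls (SD, n = 4 each), no listed mast cell gene was at 0 in any library, and the part of mast cells in Slc18a2 was not tested. Slc6a2 was higher by 0.62 in controls (SE 0.23, adjusted p = 0.0272) and by 0.59 in cKO (SE 0.24, adjusted p = 0.0498). In controls the call failed without tPVAT control 1, 2 or 3 or aPVAT control 3 or 4, with adjusted p between 0.0520 and 0.0883. In cKO the call failed without tPVAT cKO 1, 3 or 4 or aPVAT cKO 3, with adjusted p between 0.0552 and 0.307.

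Genes of the axon and its cytoskeleton rose in the same way. Prph, the intermediate filament peripherin of autonomic neurons, stood at 84.3, 108 and 74.3 CPM in aPVAT cKO and at 61.0, 70.7, 98.3 and 81.1 CPM in aPVAT controls. In tPVAT it stood at 48.7, 54.8, 29.0 and 43.8 CPM in cKO and at 38.1, 32.8, 34.5 and 47.3 CPM in controls. All 7 aPVAT libraries stood above all 8 tPVAT libraries, and the log2 fold change was 1.03 in controls (SE 0.19) and 1.01 in cKO (SE 0.20). The light neurofilament Nefl stood at 27.2, 35.2 and 26.4 CPM in aPVAT cKO and at 16.2, 24.8, 31.3 and 25.4 CPM in aPVAT controls, against 14.4, 16.2, 8.87 and 12.2 CPM in tPVAT cKO and 10.7, 6.93, 11.9 and 11.8 CPM in tPVAT controls. Its log2 fold change was 1.24 in controls (SE 0.22) and 1.2 in cKO (SE 0.23), the depots did not overlap within either genotype, and Nefm was close to it at 1.21 (SE 0.23) and 1.13 (SE 0.25). Exons of Nefl and Nefm share 1108 bases on opposite strands and the strand setting of the counting is not given, so these genes may hold each other's reads. Nefh was higher by 0.62 (SE 0.23) and 0.70 (SE 0.24). Its control call was lost without tPVAT control 1 or 2 or aPVAT control 3 or 4 (adjusted p up to 0.0956), and its cKO call without tPVAT cKO 3 or 4 or aPVAT cKO 3 (up to 0.134). The growth cone genes Stmn2 and Gap43 and the neuronal ubiquitin hydrolase Uchl1 rose by 0.82 to 0.96 in the 2 comparisons.

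The transcription factors of sympathetic identity also rose, Hand2 by 0.94 (SE 0.19) in controls and 0.77 (SE 0.20) in cKO, and Phox2a by 0.71 (SE 0.22) and 0.61 (SE 0.23). Exons of Hand2 share 461 bases with Hand2os1, which had 1.65 to 6.05 CPM, and exons of Phox2a share 95 bases with Inppl1, which had 58.5 to 95.6 CPM, both on the opposite strand. Of the genes of transmitter release, Snap25, a protein of vesicle fusion, rose by 0.76 (SE 0.24) in controls and 0.66 (SE 0.25) in cKO. Syt1, the calcium sensor of release, did not pass in controls (0.32, SE 0.24, adjusted p = 0.262) or cKO (0.25, SE 0.26, adjusted p = 0.439). The cKO call of Phox2a was lost without tPVAT cKO 1, 3 or 4 or aPVAT cKO 3 (adjusted p up to 0.284), and that of Snap25 without tPVAT cKO 3 or 4 or aPVAT cKO 1 or 3 (up to 0.169).

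**Figure D3:**
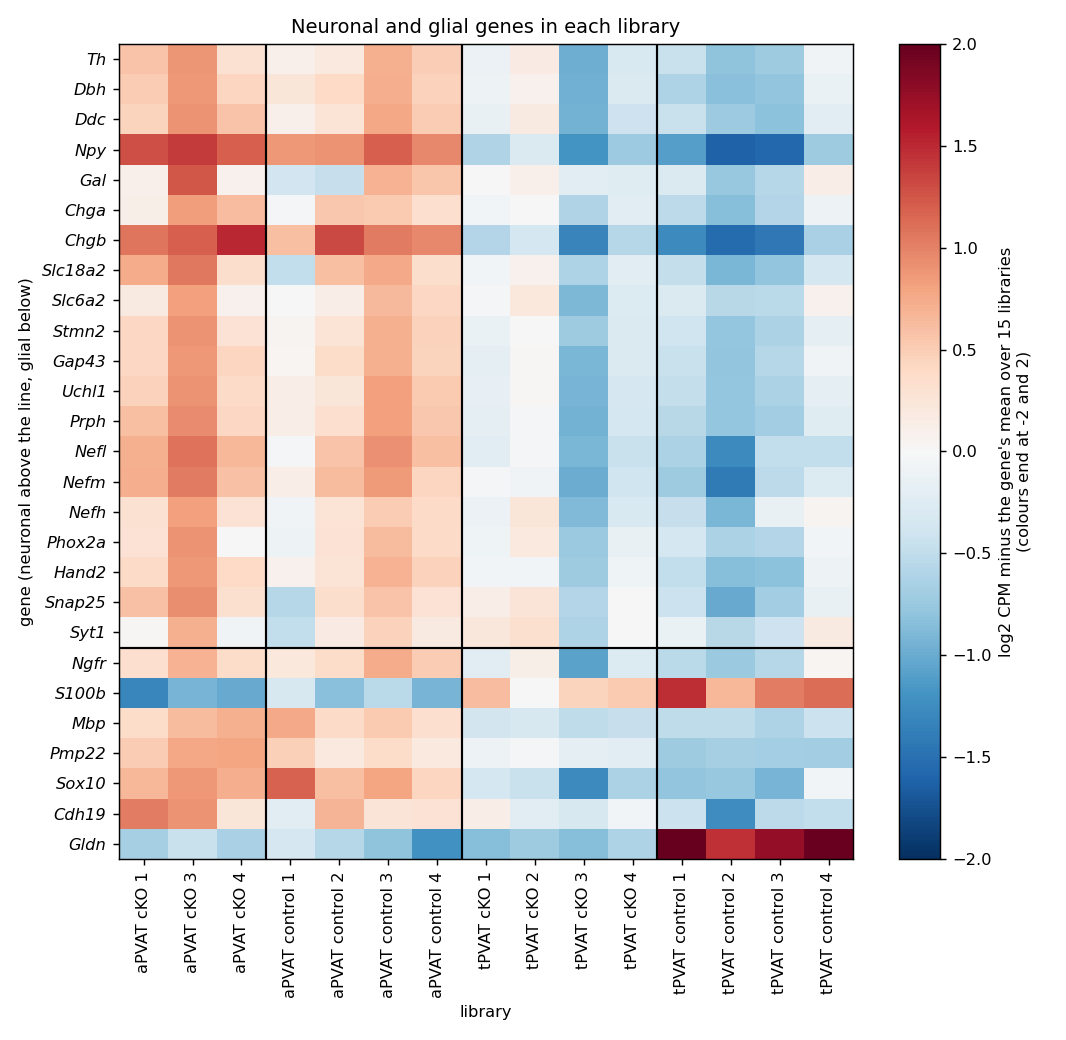
Log2 CPM of each of the 27 genes minus its own mean over the 15 libraries (colour, red above and blue below, ends at −2 and 2), libraries in columns by group and genes in rows. Most rows are red in aPVAT and blue in tPVAT, S100b runs the other way, Gldn is red only in tPVAT controls, and columns such as tPVAT cKO 3 and aPVAT cKO 3 are shifted for nearly all neuronal genes.

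Among the glial genes Sox10 rose most between depots. It stood at 13.6, 15.6 and 14.2 CPM in aPVAT cKO and at 19.4, 13.0, 14.8 and 11.6 CPM in aPVAT controls, above all the tPVAT values given. The log2 fold change was 1.37 in controls (SE 0.21, adjusted p = 4.59e-05 in edgeR) and 1.38 in cKO (SE 0.22, adjusted p = 9.06e-05). Mbp stood at 106, 127 and 134 CPM in aPVAT cKO and at 139, 107, 117 and 103 CPM in aPVAT controls, and was higher than in tPVAT by 1.03 (SE 0.09) in controls and 0.99 (SE 0.10) in cKO. Pmp22 was higher by 1.0 (SE 0.08) in controls and 0.83 (SE 0.08) in cKO. Cdh19 stood at 22.1, 20.1 and 12.8 CPM in aPVAT cKO and at 9.2, 17.3, 12.9 and 13.2 CPM in aPVAT controls, and was higher by 0.92 (SE 0.21) and 0.87 (SE 0.22). Ngfr was higher by 0.89 (SE 0.21) in controls and 0.77 (SE 0.22) in cKO. In each genotype the aPVAT libraries of these 5 genes stood above the tPVAT libraries.

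S100b was lower in aPVAT in both genotypes, by −1.73 in controls (SE 0.18, adjusted p = 6.2e-07 in edgeR) and −1.49 in cKO (SE 0.20, adjusted p = 1.38e-05). Gldn was lower in aPVAT in controls alone, at −2.67 (SE 0.21, adjusted p = 2.6e-08), and its cKO difference of 0.18 (SE 0.23) did not pass (adjusted p = 0.542, but 0.00343 with library totals, where the difference was 0.83). The difference between these depot effects is the same test between depots that Gldn passed above. Adipocyte genes differed beside S100b and Gldn: Ucp1, the uncoupling protein of brown fat, averaged 546 CPM in aPVAT controls and 6260 CPM in tPVAT controls, and 18.8 CPM in aPVAT cKO and 4060 CPM in tPVAT cKO. Of the 14 adipocyte markers 6 were higher and 4 lower in aPVAT in controls, against 29.3% and 27.3% of all genes. Their part in the levels of S100b and Gldn was not tested.

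Within a group the neuronal genes moved as 1 block. In tPVAT cKO, library 2 was highest for 19 of 20 neuronal genes and library 3 lowest for 19. In tPVAT controls, library 4 was highest for 19 and library 2 lowest for 19. In aPVAT cKO, library 3 was highest for 19, and in aPVAT controls library 3 was highest for 18 and library 1 lowest for 19. Divided by Dbh of the same library, most of this spread was gone. The median coefficient of variation of the other 19 neuronal genes was 20.1% for the level and 6.59% for the ratio in aPVAT cKO, and 20.1% and 8.2% in aPVAT controls. It was 25.2% and 6.41% in tPVAT cKO, and 22.9% and 7.05% in tPVAT controls. The level varied more than the ratio for 17, 18, 18 and 18 of 19 genes in these groups. The ratio compares 1 gene across libraries, not genes with each other, since it is not per length.

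Against Dbh, 15 of 19 neuronal genes had ranges that overlapped between depots, and 4 did not, where 42.2% of all genes did not overlap. Dbh itself was higher in aPVAT, so a gene with equal levels in both depots has a lower ratio there, and this share is not a like measure. The ratio of Npy was 0.366 to 0.438 in aPVAT cKO and 0.355 to 0.393 in aPVAT controls, against 0.180 to 0.216 in tPVAT cKO and 0.148 to 0.182 in tPVAT controls. That of Chgb was 0.152 to 0.262 over the aPVAT libraries and 0.0750 to 0.101 over the tPVAT libraries. Slc6a2 and Syt1 went the other way. The ratio of Slc6a2 was 1.09 to 1.33 in aPVAT and 1.39 to 1.71 in tPVAT, and that of Syt1 was 0.297 to 0.446 in aPVAT and 0.584 to 0.692 in tPVAT. The ratio of Th, by contrast, was 0.394 to 0.469 in aPVAT and 0.445 to 0.505 in tPVAT.

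The ratio to Dbh also parted the genotypes of tPVAT for 3 of 19 genes, against 3.18% of all genes. The coefficient of variation of Dbh was 27.9% in tPVAT cKO and 24% in tPVAT controls. A gene that does not vary with Dbh takes on this spread in the ratio. The share over all genes is thus not a like measure for the neuronal genes. Slc6a2 to Dbh was 1.45, 1.49, 1.43 and 1.39 in tPVAT cKO and 1.71, 1.65, 1.63 and 1.60 in tPVAT controls. All cKO ratios were lower. Gap43 to Dbh was likewise lower in cKO, at 0.157 to 0.172 against 0.173 to 0.197 in controls. Chgb to Dbh was higher, at 0.0875 to 0.101 in cKO and 0.0750 to 0.0859 in controls. In aPVAT only Nefl parted the genotypes, whose lowest cKO ratio lay just above the highest control ratio (0.128 to 0.133 in cKO and 0.0917 to 0.128 in controls), against 5.01% of all genes. These ratios were not tested.

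**Figure D4:**
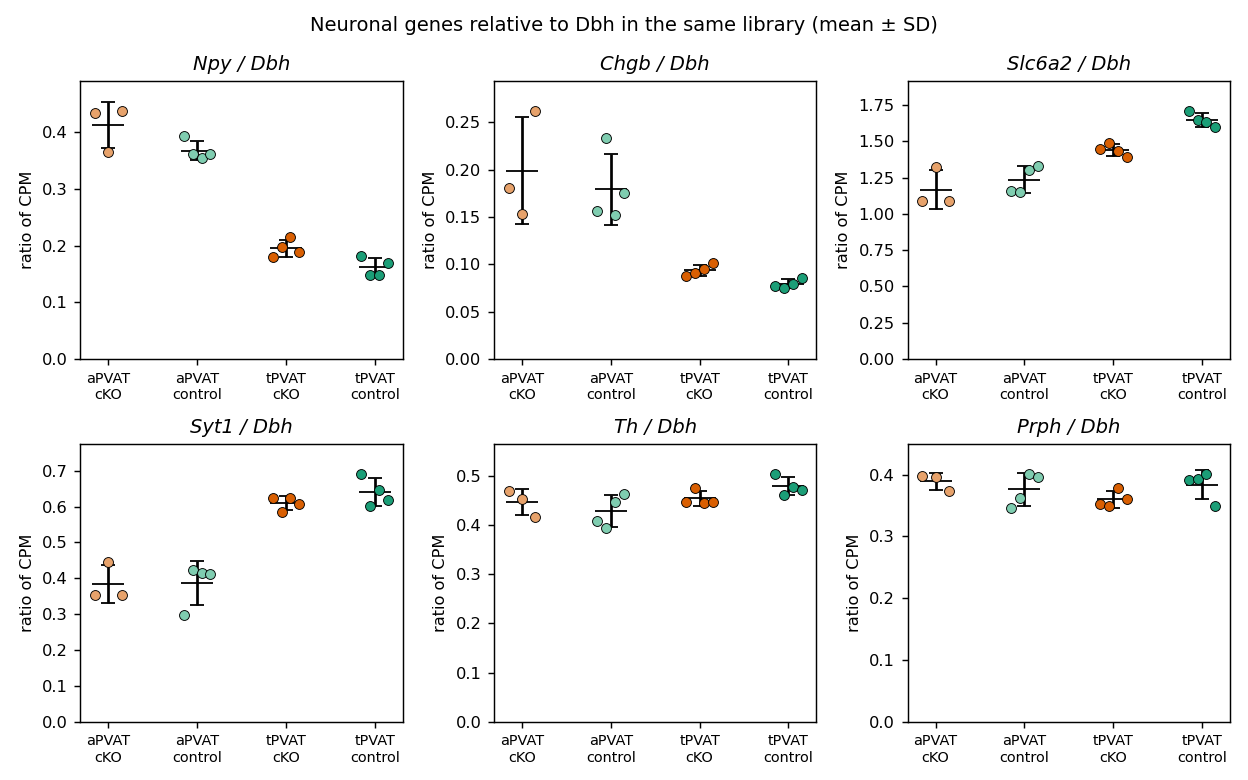
Ratio of CPM to that of Dbh in the same library (vertical axes start at 0) for 6 neuronal genes in aPVAT cKO, aPVAT control, tPVAT cKO and tPVAT control libraries; points are libraries and bars are mean ± SD. Npy and Chgb are higher and Slc6a2 and Syt1 lower in aPVAT than in tPVAT, while Th and Prph overlap.

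Neuronal and glial genes were set against each other in each library by their mean log2 CPM. Neuronal minus glial was 0.80 ± 0.171 in aPVAT cKO (SD, n = 3), 0.66 ± 0.366 in aPVAT controls, 0.38 ± 0.239 in tPVAT cKO and −0.20 ± 0.137 in tPVAT controls (n = 4 each). By library it was 0.75, 0.99 and 0.66 in aPVAT cKO and 0.15, 0.65, 0.93 and 0.93 in aPVAT controls, and 0.42, 0.67, 0.08 and 0.34 in tPVAT cKO and −0.29, −0.28, −0.24 and 0.00 in tPVAT controls. The tPVAT genotypes did not overlap, and the aPVAT genotypes did. With only Sox10, Mbp and Cdh19 on the glial side, the difference was 0.67 ± 0.188 in aPVAT cKO, 0.63 ± 0.349 in aPVAT controls, 0.82 ± 0.212 in tPVAT cKO and 0.75 ± 0.098 in tPVAT controls, and all 4 groups overlapped. Without Gldn, S100b and Pmp22 on the glial side, the difference was 0.39 in tPVAT cKO and 0.29 in tPVAT controls. Gldn, S100b and Pmp22 are the glial genes that passed for genotype in tPVAT in these same data, and Sox10, Mbp and Cdh19 did not pass. Glial sets parted by these results cannot test whether the balance of neuronal and glial genes differs by genotype.

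The glial genes ranked the libraries partly as the neuronal genes did. Library 3 of tPVAT cKO was lowest for 19 of 20 neuronal and 5 of 7 glial genes, library 3 of aPVAT cKO was highest for 19 and 4, and library 2 of tPVAT controls was lowest for 19 and 4. In aPVAT controls, by contrast, library 1 was lowest for 19 of 20 neuronal genes but highest for 5 of 7 glial genes, among them Sox10 (19.4 CPM) and Mbp (139 CPM). The same library was lowest for Cdh19 (9.2 CPM) and Ngfr (71.7 CPM). Within groups the ratio of Ngfr to Dbh had a coefficient of variation of 2.51% to 5.33%, and that to Sox10 of 7.22% to 27.8%. The ratio of Ngfr to Dbh parted the genotypes in both depots, at 0.367 to 0.402 in aPVAT cKO and 0.406 to 0.429 in aPVAT controls, and at 0.385 to 0.425 in tPVAT cKO and 0.44 to 0.486 in tPVAT controls. Over all genes the ratio to Dbh parted the genotypes for 5.01% in aPVAT and 3.18% in tPVAT, with the limit given above. Sox10 to Dbh parted them in tPVAT alone, at 0.04 to 0.0487 in cKO and 0.0509 to 0.0609 in controls. Mbp to Dbh overlapped in both depots, as did Ngfr to Sox10, Sox10 to Mbp and Cdh19 to Sox10. The ratio of Pmp22 to Mbp parted the genotypes in both depots, at 1.99 to 2.08 in aPVAT cKO and 1.55 to 1.71 in aPVAT controls, and at 2.23 to 2.34 in tPVAT cKO and 1.57 to 1.80 in tPVAT controls. These ratios were not tested, and no share over all genes was taken for Pmp22 to Mbp.

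**Figure D5:**
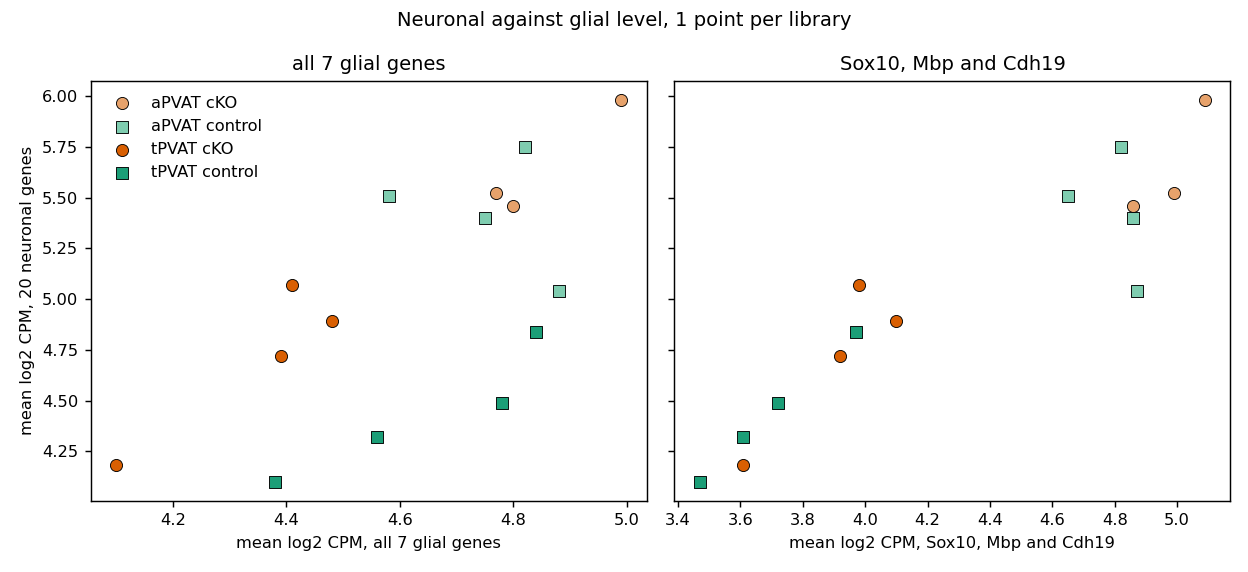
Mean log2 CPM of the 20 neuronal genes (vertical axis) against that of all 7 glial genes (left) or of Sox10, Mbp and Cdh19 (right), 1 point per library. On the left the tPVAT cKO libraries have more neuronal for their glial level than the tPVAT control libraries. Neuronal minus glial was 0.08 to 0.67 in tPVAT cKO and −0.29 to 0.00 in tPVAT controls. On the right the genotypes share 1 band and the depots part, with glial genes that did not pass for genotype in these same data.

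Other genes of the same cells were taken from lists put together with earlier results known. Beside these lists, 1.53% of all genes passed for genotype in aPVAT and 12% in tPVAT. Between depots 29.3% of all genes were higher and 27.3% lower in aPVAT in controls, and 27.2% and 25.4% in cKO. Of 34 other sympathetic genes 0 passed for genotype in either depot, with a median log2 fold change of 0.15 in aPVAT and 0.17 in tPVAT, and 27 were higher and 0 lower in aPVAT in controls, 25 and 0 in cKO. The transcription factors Gata3 (1.19) and Gata2 (0.68) had the smallest p in controls, and Gata2 is also a mast cell gene. Of 29 genes on a further Schwann cell list, which holds Gap43 from the neuronal members, 26 were higher and 0 lower in aPVAT in controls, and 25 and 0 in cKO, with medians of 1.14 and 1.17. Among them was Prx, which encodes periaxin of the myelin sheath, at 18.2 ± 3.56 CPM in aPVAT controls and 5.54 ± 0.629 CPM in tPVAT controls (SD, n = 4 each), higher by 1.72 (SE 0.13). For genotype 1 of the 29 passed in tPVAT, the sodium channel gene Scn7a, at 71.3 ± 4.2 CPM in cKO and 47.3 ± 4.34 CPM in controls (log2 fold change 0.59, SE 0.14, adjusted p = 0.0102 in edgeR), and 0 passed in aPVAT.

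Of 33 neurotrophic factors and receptors measured, 0 were higher and 6 lower in tPVAT cKO, and 0 higher and 2 lower in aPVAT cKO. The list holds Ngfr from the glial members, and over all genes 6.61% were lower in tPVAT and 0.789% in aPVAT. Ntrk3, the receptor of neurotrophin 3, fell in both. It stood at 9.51, 9.94 and 9.25 CPM in aPVAT cKO and at 16.9, 18.4, 17.2 and 14.1 CPM in aPVAT controls, and at 25.5, 23.4, 25.7 and 26 CPM in tPVAT cKO and 52.1, 50.9, 50.1 and 66.7 CPM in tPVAT controls. The genotypes did not overlap in either depot, with log2 fold changes of −0.80 in aPVAT (SE 0.11, adjusted p = 0.000595 in edgeR) and −1.13 in tPVAT (SE 0.10, adjusted p = 1.15e-06). Ntrk2, the receptor of brain-derived neurotrophic factor, fell by 0.36 on the log2 scale in aPVAT and by 0.40 in tPVAT.

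Of 18 genes of the response to noradrenaline and neuropeptide Y, 1 was higher and 1 lower in aPVAT cKO, and 2 were higher and 4 lower in tPVAT cKO, where over all genes 1.53% passed in aPVAT and 12% in tPVAT. The adrenergic receptor gene Adra1a was lower in both (−1.01, SE 0.16, in aPVAT and −0.64, SE 0.14, in tPVAT). In tPVAT the galanin receptor Galr1 fell by 1.36 on the log2 scale, to 0.340 ± 0.129 CPM in cKO against 0.870 ± 0.117 CPM in controls (SD, n = 4 each), a low level.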

How the data were processed

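RNA of 15 PVAT libraries was sequenced. The values used are the raw counts per gene that the authors deposited, and per the submitters' processing notes mm10, Salmon, Subread and DESeq2 1.42.1 were used; the settings of the counting are not given there. Of 43352 identifiers, 42468 (98.0%) matched GENCODE M21 symbols.

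The counts were tested with edgeR 4.0.16 (R 4.3.3): filterByExpr at a minimum count of 10 kept 19645 genes and 99.98% of the counts, TMM gave scaled library sizes, and 1 quasi-likelihood model with 4 group means gave 5 contrasts with Benjamini-Hochberg adjustment at 0.05. Logged CPM used a prior count of 2. Fits were checked on simulated counts. RLE, library totals, TMM without mitochondrial genes, no filter, only the groups compared, limma-voom (limma 3.58.1), DESeq2 1.42.0, replicate blocks and omitted libraries were tried. Members and lists were chosen with earlier results of these data known. All members are accounted for, with values by library for those that passed for genotype, up to 8 with the smallest p between depots, and 9 fixed genes. Of other lists, up to 4 genes with the smallest p and the first 3 listed could be named, and Cpa3, Ucp1, Pnmt, Cyp21a1 and Hsd3b1 were named as defining markers. Some genes of these lists are not reported here.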

Additional observations from a re-analysis of the deposited data

Results flagged for a closer look

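Of 147 groups of 4 libraries examined, 7 held a library far from the other 3, where chance gives about 1 in 20. Hand2 stood at 10.5 CPM in tPVAT cKO 3, against 16.2 to 16.6 CPM in the other tPVAT cKO libraries. Sox10 stood at 8.25 CPM in tPVAT control 4, against 4.5 to 5.08 CPM in the other tPVAT controls. Cdh19 stood at 4.55 CPM in tPVAT control 2, against 7.53 to 7.99 CPM in the other tPVAT controls. The ratio of Syt1 to Dbh was 0.297 in aPVAT control 1, where the other 3 aPVAT controls had 0.411 to 0.424. The other Schwann cell genes summed to 707 CPM in aPVAT control 4, where the other 3 aPVAT controls had 800 to 810 CPM. Skeletal muscle genes summed to 90 CPM in tPVAT control 4, against 14 to 22.3 CPM in the other tPVAT controls. Endothelial genes summed to 1030 CPM in tPVAT cKO 2, against 963 to 971 CPM in the other tPVAT cKO libraries.

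Gldn was marked because the genotype differences in aPVAT and tPVAT differed, by 2.85 on the log2 scale (adjusted p = 0.000172, edgeR).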

How the results depend on the processing

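In tPVAT 2367 genes passed for genotype, 3726 with only the groups compared and 4080 with voom. In aPVAT 301 passed, 92 with only the groups compared, 605 with DESeq2 and 161 to 398 with 1 library left out. The difference between depots in the genotype effect passed for 154 genes, and for 350 with DESeq2. The 1 aPVAT member, Pmp22, gave way to 0 with library totals, only the groups compared, the replicate block by number, or without aPVAT control 2 and aPVAT cKO 4, and the count was 0 to 1 with 1 library left out. In tPVAT 3 members passed, and 2 to 5 with 1 library left out. With library totals the share of higher calls was 66.9% in tPVAT and 36.6% in aPVAT for genotype, against 45.2% and 48.5%.

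Genotype differences near 0 changed sign. In tPVAT Sox10 was 0.043 with library totals and 0.008 with voom. In aPVAT Sox10 was 0.002 with TMM without mitochondrial genes and 0.12 with voom, Slc6a2 was −0.083 with voom, and Mbp was −0.04 without aPVAT control 2 and aPVAT cKO 4. With 1 library left out, tPVAT values were −0.051 to 0.285 for Slc6a2 and −0.14 to 0.19 for Sox10. The aPVAT values were −0.001 to 0.25 for Dbh, −0.19 to 0.21 for Slc6a2, −0.12 to 0.14 for Sox10, −0.002 to 0.16 for Mbp and −0.023 to 0.263 for Gldn. Neuronal minus glial level, as a median over members, was 1.75 in aPVAT cKO, 1.57 in aPVAT controls, −0.14 in tPVAT cKO and −1.06 in tPVAT controls. Without Gldn, S100b and Pmp22, the glial genes that passed for genotype in tPVAT, it was 0.31, 0.22, 0.39 and 0.29 in the same groups. The cause was not tested.

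Deviations from the group mean were correlated between libraries of the same number. Across depots within a genotype the correlations were 0.0337 to 0.148 in cKO and 0.00312 to 0.117 in controls. Over all pairs of groups they were −0.184 to 0.196, and both ends came from aPVAT cKO against aPVAT control, which differ in genotype. The fits are unpaired, and the labels do not say whether libraries of the same number share an animal. With the number as replicate block, 312 genes passed for genotype in aPVAT and 2392 in tPVAT. Another block joined libraries of the same number and genotype across depots, as if from the same mouse, which the labels do not state. With that block 10765 passed between depots in controls and 9753 in cKO. Between depots in cKO, 18 of 20 neuronal genes passed, and 15 with the number as replicate block, where Slc6a2 (adjusted p = 0.0936), Phox2a (0.0662) and Snap25 (0.0674) did not. With the block across depots 17 passed, and Snap25 did not (0.0513). Without a block, Slc6a2 did not pass there with RLE scaling (0.0537), voom (0.0523) or only the groups compared (0.0665), nor did Phox2a with only the groups compared (0.0522). Every member had at least 102 counts in each library.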

Other observations

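Genes of sensory neurons, another nerve cell that can reach fat, were looked at after their values were seen. In tPVAT control 3 the sodium channel genes Scn10a and Scn11a stood at 2.62 and 1.86 CPM, the highest of all 15 libraries, and the peptide gene Calca at 1.38 CPM. In tPVAT controls 1, 2 and 4 Scn10a stood at 0.218, 0.412 and 0.183 CPM and Scn11a at 0.138, 0.169 and 0.229 CPM. The same library had the highest ratios of the neurofilament genes to Dbh, at 0.138 for Nefl, 0.129 for Nefm and 0.104 for Nefh. Of the 14 cholinergic and sensory neuron genes tested 1 passed for genotype in tPVAT, the heat receptor gene Trpv1 (log2 fold change 0.62, SE 0.19, adjusted p = 0.0446, edgeR). Over all genes 12% passed in this comparison. Trpv1 was at 2.3 CPM in tPVAT control 3 and at 2.14, 2.27 and 1.44 CPM in tPVAT controls 1, 2 and 4. Between depots in controls, 1 of the 14 was higher in aPVAT, Trpv1 (1.85, SE 0.19). In the same comparison 4 were lower, among them Scn10a (−3.28, SE 0.83) and Calcb (−3.13, SE 0.57). Over all genes 29.3% were higher and 27.3% lower there.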
